A study of Mus musculus with 2 samples.

Results

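The cytosolic ribosomal protein genes are the genes whose products, with the ribosomal RNAs, build the ribosome of the cytoplasm. They were taken by name from the spliced count matrix: every mouse symbol made of Rpl or Rps and a number, with an optional letter or l ending, and Rplp0, Rplp1, Rplp2 and Rpsa. Symbols of pseudogenes (-ps) and of the S6 kinases (Rps6k) were left out. The rule used no measured value and found 87 of 54736 gene symbols, 54 named for the large and 33 for the small subunit. By gene ID, 83 of the 87 were annotated as protein coding in GENCODE M21 and 4 as pseudogenes in spite of their names (Rpl6l, Rpl32l, Rps12l1 and Rps4l). The 83 coding members lay on 19 chromosomes, with at most 14 on any 1 of them.

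Ribosomal proteins are made in near-equal numbers and assembled with ribosomal RNA in the nucleolus before both subunits are exported. Their mRNAs typically begin with a terminal oligopyrimidine tract (TOP), a C followed by an unbroken run of pyrimidines, through which mTOR signalling and the RNA-binding protein LARP1 control their translation and stability. Free RPL5 and RPL11 can bind MDM2, the ubiquitin ligase of p53, when assembly of ribosomes is disturbed. Growing blood progenitors spend much of their transcription on ribosomes, and this output is known to decline as they mature.

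The cells were 63.3, a mouse acute myeloid leukaemia line that is kept immature in medium with 0.5 µM beta-estradiol and with stem cell factor from a conditioned medium. In the brequinar series, cells stayed in estradiol and received 2 µM brequinar, an inhibitor of the pyrimidine synthesis enzyme dihydroorotate dehydrogenase, for 6, 12, 24 or 48 h. In the withdrawal series, cells were washed in buffer and kept without estradiol for the same times. Each series had its own 0 h culture, and no untreated culture was carried along to a later time; whether the brequinar 0 h culture received the solvent is not stated. By its title the study is about a maturation programme that nucleotide depletion sets off. Each of the 10 conditions was 1 culture of 1 line, marked with a lipid-anchored barcode (MULTI-seq), pooled with the others and sequenced as 10x single-cell libraries in 2 runs of 1 pool. A difference between cultures therefore has no replicate behind it and no test was possible. Intervals given here are exact 95% intervals that cover counting error only.

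After barcodes called as doublets or unassigned had been left out, 12540 cells remained, 528 to 1536 per condition, with 5236694 to 19931921 spliced molecules (UMIs) per condition. The brequinar 48 h culture had the fewest cells and UMIs. Mean UMIs per cell were 13261 and 13768 in the brequinar and withdrawal 0 h cultures and 7127 to 10992 in the others. The myeloid label was checked on 7 markers, all detected, with a summed level of 1341 to 3594 counts per 1000000 UMIs (CPM). Mpo, at 503 to 2859 CPM, was the highest of the 7 in every culture but withdrawal 48 h, and Csf1r had 0.537 to 54.6 CPM. The 6 erythroid markers summed to 0.583 to 8.86 CPM. The 7 lymphoid markers summed to 48.1 to 147 CPM, nearly all of it Cd79b, with Cd4 at 0 in every culture. The 4 megakaryocyte markers summed to 24.4 to 179 CPM, with Pf4 at 53.5 CPM at brequinar 48 h against 10.9 CPM at brequinar 0 h. The part of such genes in the results below was not tested.

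Because these mRNAs are known by their first bases, the starts of 9 members are shown. Each window runs from 30 bases before the start that RefSeq lists first for the gene to 20 bases from the start on, 5′ to 3′ on the gene's strand (build GRCm38.p6), and capitals mark the run of pyrimidines that begins at the start. In Rps6, Rps18, Rpl15, Rps15a, Rpl35 and Rps27 the run began with C and held at least 4 more pyrimidines. In Rps24 the run began with T. In Rps27l and Rpl22l1, paralogs of Rps27 and Rpl22 described below, the listed base was G and no run began at it. A C with 4 or more pyrimidines after it did begin within 10 bases of the listed start in Rps24, Rps27l and Rpl22l1.
Rps6, chr4:86857348-86857397, minus strand: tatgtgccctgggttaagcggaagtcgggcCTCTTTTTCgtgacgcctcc
Rps18, chr17:33955646-33955695, minus strand: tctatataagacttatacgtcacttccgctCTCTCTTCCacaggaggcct
Rpl15, chr14:18270967-18271016, minus strand: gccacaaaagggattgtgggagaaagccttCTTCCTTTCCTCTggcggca
Rps15a, chr7:118116128-118116177, minus strand: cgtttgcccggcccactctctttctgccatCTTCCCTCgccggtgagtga
Rpl35, chr2:39005112-39005161, minus strand: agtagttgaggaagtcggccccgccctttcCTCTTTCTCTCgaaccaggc
Rps27, chr3:90213629-90213678, minus strand: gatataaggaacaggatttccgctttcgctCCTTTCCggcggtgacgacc
Rps24, chr14:24490648-24490697, plus strand: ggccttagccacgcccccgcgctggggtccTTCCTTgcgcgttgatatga
Rps27l, chr9:66946056-66946105, plus strand: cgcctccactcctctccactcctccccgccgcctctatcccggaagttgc
Rpl22l1, chr3:28805478-28805527, plus strand: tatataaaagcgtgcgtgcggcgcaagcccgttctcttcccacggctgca

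Of the 87 members, 64 had a promoter in the RefSeq table, which holds 250 bases before and 50 bases from the start on. A C at the listed start with 4 or more pyrimidines after it was found in 13 of the 64 (20.3%), against 2.49% of 27025 genes. Among the 13 was Rpl32l, which is annotated as a pseudogene and had no count in any culture. With such a run allowed to begin within 10 bases of the start, the shares were 57.8% of the members and 30.8% of all genes. On either strand of the 300-base windows, the ETS core CCGGAAG was found in 37.5% of the members and 9.12% of all genes, and the GC box GGGCGG in 59.4% and 35.9%. CTCTTTCC, a stretch of pyrimidines, was anywhere in these windows, on either strand, in 14.1% of the members and 3.04% of all genes. Whether a match lay at the start was not checked. The YY1 core GATGGCG was in 7.81% and 3.66%, the E-box CACGTG in 7.81% and 7.24%, and the TATA box TATAAA in 10.9% and 14.2%. These are matches of letters and do not show that a factor binds.

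The share of all spliced UMIs that came from ribosomal protein genes was higher at 6 h in both series and then lower, by more in brequinar than in withdrawal. In the brequinar series it was 10.1% at 0 h, 12.6% at 6 h, 10.8% at 12 h, 8.10% at 24 h and 6.85% at 48 h. Set against brequinar 0 h, the share was 1.247-fold at 6 h (1.244 to 1.2495), 1.07-fold at 12 h, 0.804-fold at 24 h (0.803 to 0.806) and 0.680-fold at 48 h (0.678 to 0.683). In summed counts, other kinds of cells and another amount of RNA per cell cannot be told apart. Under the 11 other ways of scaling, weighting or choosing cells and controls that were tried, the 48 h value lay between 0.665 and 0.753 and the 6 h value between 1.216 and 1.261. The 2 subunits moved together: the ratio of large to small subunit UMIs stayed between 0.977 and 1.02 over the 10 cultures.

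In the withdrawal series the share was 10.1% at 0 h, 12.0% at 6 h, 11.7% at 12 h, 10.3% at 24 h and 9.54% at 48 h. Against withdrawal 0 h this was 1.19-fold at 6 h (1.189 to 1.194), 1.16-fold at 12 h, 1.02-fold at 24 h and 0.946-fold at 48 h (0.944 to 0.949). The direction at withdrawal 48 h depended on the scaling: it was 1.21-fold with median-of-ratios size factors, 1.05-fold when neutrophil granule genes were left out of the total and 1.03-fold when each cell was weighted alike. Those 25 granule genes, which encode the proteins stored in neutrophil granules, took 10.6% of UMIs at withdrawal 48 h against 0.974% at withdrawal 0 h. At brequinar 48 h they took 3.09%, against 0.961% at brequinar 0 h. Size factors moved the median log2 ratio of all genes at withdrawal 48 h to 0.03, against -0.33 on the CPM scale.

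The 2 cultures at 0 h gave the same share within counting error, with a ratio of 0.999 for brequinar 0 h over withdrawal 0 h (0.997 to 1.00). At matched times the brequinar culture over the withdrawal culture had a ratio of 1.05 at 6 h, 0.922 at 12 h, 0.788 at 24 h and 0.718 at 48 h. Counted per cell, the mean number of ribosomal protein UMIs was 1335, 1315, 1121, 890 and 679.5 in the brequinar series from 0 to 48 h, and 1388, 1159, 1034, 1075 and 679.7 in the withdrawal series. At 6 h neither mean was above its 0 h value, while the share was higher in both series. Mean UMIs of all genes per cell at 6 h were 10474 in brequinar and 9655 in withdrawal, below those of the 0 h cultures. The means per cell at 48 h were nearly equal, while the share was lower in brequinar. Mean UMIs of all genes per cell at 48 h were 9918 in the brequinar culture and 7127 in the withdrawal culture, and UMIs per cell cannot tell RNA content from the efficiency of capture.

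**Figure D1:**
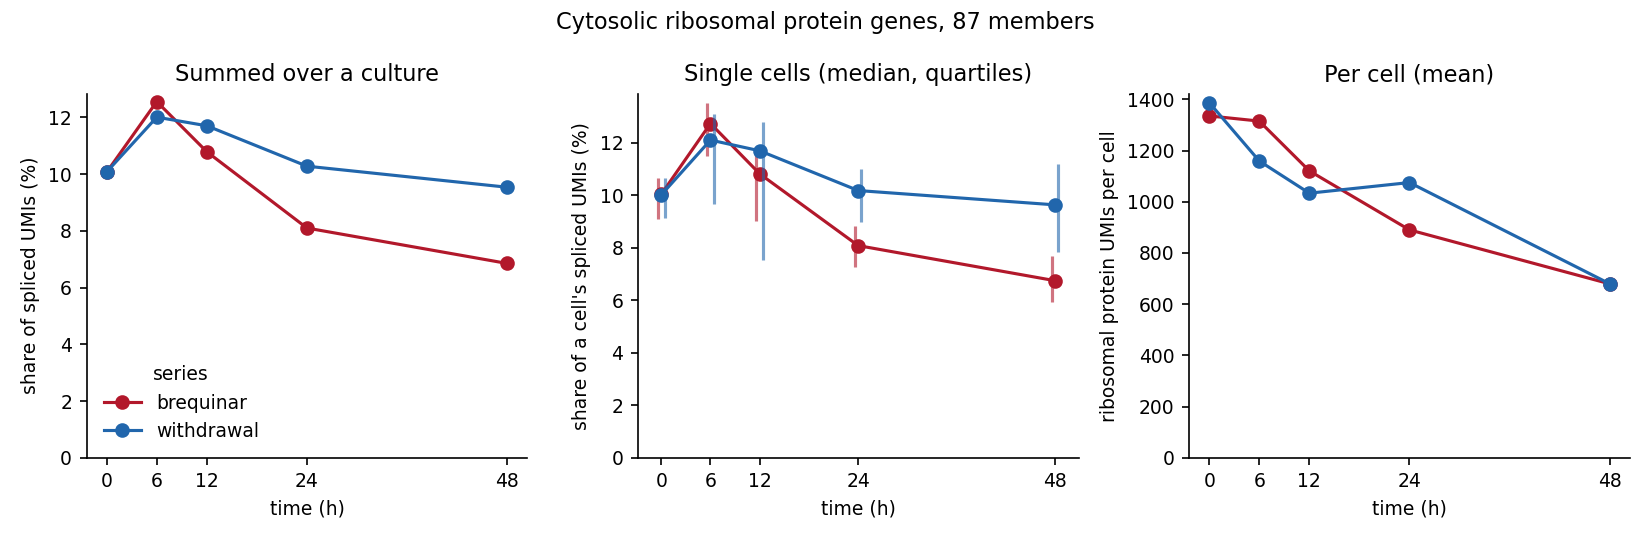
Ribosomal protein UMIs against time in hours for the brequinar (red) and withdrawal (blue) series, 1 culture per point. Left, percent of the summed spliced UMIs; middle, median over cells of the percent of a cell's UMIs, with bars from the lower to the upper quartile; right, mean UMIs per cell. Both series peak at 6 h in the left panel, at 12.6% in brequinar and 12.0% in withdrawal, and at 48 h brequinar lies at 6.85% and withdrawal at 9.54%.

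The shift was seen across cells. The median cell of the brequinar series had 10.0% ribosomal protein UMIs at 0 h, 12.7% at 6 h and 6.74% at 48 h. At brequinar 48 h the upper quartile of cells, 7.69%, was below the lower quartile at brequinar 0 h, 9.08%. The quartiles of the withdrawal 48 h cells were 7.85% and 11.2%, against 9.13% and 10.7% at withdrawal 0 h, so the cells were more spread and the ranges overlapped.

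Cells were also grouped by phase, called from S and G2/M gene scores after each cell had been thinned to 2500 UMIs. The G2/M class held 72.04% of the thinned cells at brequinar 48 h, against 45.8% at brequinar 0 h, and the S class 10.9%, against 53.5%. Within the G2/M class the ribosomal protein share was 6.72% at brequinar 48 h and 10.1% at brequinar 0 h, and within the S class it was 7.12% and 10.2%. The lower share at brequinar 48 h was thus present in both classes. Weighting the cells to the phase shares of 0 h left 40 members lower by the rule used below, against 42 without weights. The share of all genes under these weights is not given. In the withdrawal series the G1 class held 56.1% of cells at 48 h, with a ribosomal protein share of 10.2%. It held 0.426% of cells (5 cells) at withdrawal 0 h and 0.688% (9 cells) at brequinar 0 h. The classes rest on gene scores and not on DNA content, so they may differ from the true phases.

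Cells with 10% or more mitochondrially encoded UMIs had low ribosomal protein shares in every culture, 4.38% to 7.08%, against 6.86% to 12.8% in the other cells of the same cultures. They made up 1.70% of cells at brequinar 48 h against 18.4% at brequinar 0 h, and 3.12% at withdrawal 48 h against 16.6% at withdrawal 0 h. Without them the summed share was 0.668-fold at brequinar 48 h and 0.934-fold at withdrawal 48 h. In the 10% of withdrawal 48 h cells richest in granule UMIs, granule genes took 35.1% of UMIs and ribosomal protein genes 5.65%. In the other cells of that culture ribosomal protein genes took 9.98%. Barcodes of 2 to 100 UMIs, taken as free RNA of the pool, held 9.46% ribosomal protein UMIs. This lay between the 6.85% of the brequinar 48 h culture and the 12.6% of the brequinar 6 h culture.

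A member counted as measured in a comparison when it had at least 20 CPM in either culture, and as called when its CPM ratio was at least 1.5-fold in either direction. Log2 ratios carry a pseudocount of 5 CPM, which understates the change of low genes. Of the 87 members, 72 reached 20 CPM in at least 1 culture. The other 15 stayed under it in every culture, and 3 of these, Rpl32l, Rps12l1 and Rps4l, had no count in any.

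At brequinar 6 h the CPM of the family, a share of all UMIs, was higher nearly as a block. Of 71 measured members 66 had a ratio above 1, and the median log2 ratio was 0.32, against 0.05 over all 5851 measured genes. Only 2 members were called higher, against 8.82% of all measured genes, and none of the 71 was called lower, against 4.97%. The 2 were Rpl10a, a large subunit protein, at 147 CPM at brequinar 6 h against 89.5 CPM at brequinar 0 h, and Rpl22l1 at 443 CPM against 286 CPM. Among the 5 members with a ratio below 1 were Rps27l at 0.775, Rpl5 at 0.902, Rpl36al at 0.959 and Rpl31 at 0.972. Rpl5 (0.773 to 1.05) and Rpl31 (0.908 to 1.04) were within counting error of 1. At brequinar 12 h the median log2 ratio was 0.035, against 0.10 over all genes, and with size factors it was -0.033, so no direction is given. None of the 71 members was called at 12 h in either direction, against 4.67% of all measured genes lower and 13.5% higher. Among the 3 furthest above the median at brequinar 12 h were Rpsa and Rps4x, small subunit proteins with 1493 and 3020 CPM at 12 h against 1233 and 2522 CPM at brequinar 0 h.

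By brequinar 24 h each of the 71 measured members had a ratio below 1, and the median log2 ratio was -0.41, against 0.16 over all genes. The call of 1.5-fold lower was reached by 23 of them, against 13.8% of 6317 measured genes, and no member was called higher, against 29.2%. The lowest ratios were 0.426 for Rpl5, 0.510 for Rpl13a and 0.527 for Rpl22l1. Rpl5 counted as measured only through the brequinar 0 h culture, where it was high, with 22.7 CPM against 9.69 CPM at 24 h. Rpl26, Rpl32 and Rps24 stood highest above the family median, with ratios of 0.997, 0.978 and 0.973. Many members lay near the threshold: a ratio of 0.8 or below was reached by 53 members, against 24.1% of all genes, and a ratio of 0.5 or below by 1, against 5.54%.

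At brequinar 48 h 42 of 72 measured members were called lower, against 17.3% of all 6213 measured genes, and 1, Rpl3l, was called higher, against 25.7%. Rpl3l counted as measured only through the 48 h culture, where it was high. The median log2 ratio was -0.63, against 0.04 over all genes. Of 45 large subunit members 25 were lower, and of 27 small subunit members 17 were lower, with medians of -0.60 and -0.66. Giving each cell the same weight lowered the count to 28, and the other ways of scaling, weighting or choosing cells gave 40 to 46. The shares of all genes under these settings are not given, so these counts show only how far the number of members moved. A ratio of 0.5 or below was reached by 8 members, against 5.6% of all genes.

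**Figure D2:**
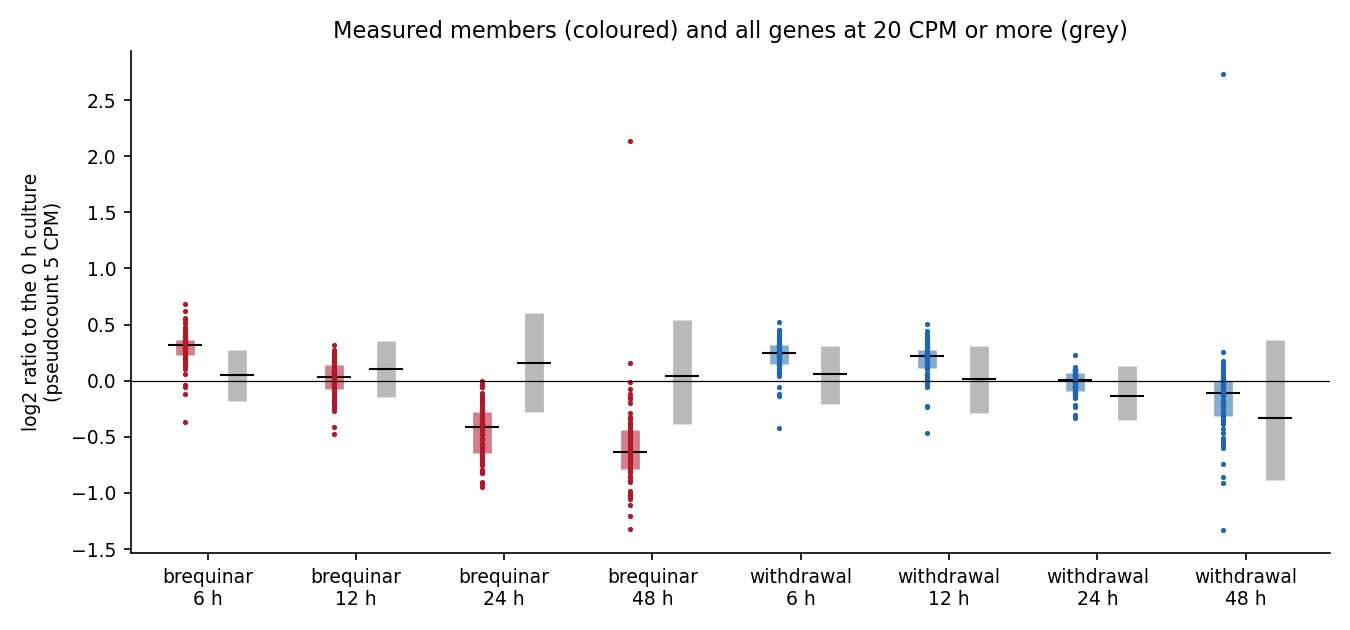
Log2 ratio to the 0 h culture of the same series for each measured member (dots) with the quartile range (coloured bar) and median (black line), beside the quartile range and median of all genes at 20 CPM or more (grey). The members lie above the genes' median at 6 h in both series and, in brequinar, below it at 24 h and 48 h, where their medians are -0.41 and -0.63.

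By log2 ratio the 5 lowest members at brequinar 48 h were Rpl13a, Rpl41, Rps20, Rplp0 and Rps2. Rpl13a, a large subunit protein that in human cells also has a role in silencing mRNAs after interferon, had 287 CPM at 0 h, 366 at 6 h, 266 at 12 h, 146 at 24 h and 112 at 48 h in the brequinar series. Its ratio at 48 h was 0.389 (0.356 to 0.423). Most of this difference was there at 24 h, where the ratio was 0.510. In the withdrawal series Rpl13a had 282, 373, 375.5, 273 and 218 CPM at the same times, and a ratio of 0.771 at 48 h. It was below its 0 h level at 48 h in both series, and by less in withdrawal.

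Rpl41 encodes the smallest ribosomal protein, a short basic peptide. It had 1723, 2027, 1639, 1056 and 744 CPM from 0 to 48 h in brequinar and 1713, 1977, 1917, 1657 and 1378 CPM in withdrawal. Its ratio at 48 h was 0.432 (0.418 to 0.447) in brequinar and 0.804 in withdrawal. Rps20, a small subunit protein, had 1076, 1504, 1082, 678 and 498 CPM in brequinar, and 1074.5, 1469, 1446, 1057 and 925 CPM in withdrawal. In brequinar Rps20 thus combined a high ratio at 6 h, 1.40, with a ratio of 0.463 (0.444 to 0.482) at 48 h. Rps2, which lies at the mRNA entry of the small subunit, was called lower at 48 h in both series, with ratios of 0.487 in brequinar and 0.666 in withdrawal. The second lies at the threshold and was 0.849 with size factors.

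The stalk of the large subunit, which recruits translation factors, is formed by Rplp0 at its base and by Rplp1 and Rplp2. Rplp0 had 4527, 5836, 4869, 3429 and 2173 CPM from 0 to 48 h in brequinar and 4515, 5648, 5444, 4694 and 4682 CPM in withdrawal. Its ratio at 48 h was 0.480 (0.471 to 0.490) in brequinar and 1.04 (1.02 to 1.05) in withdrawal, so the series parted at this gene. Rplp1 had ratios at 48 h of 0.659 in brequinar and 0.878 in withdrawal, and Rplp2 had 0.732 and 0.847. Of the 3 stalk genes only Rplp0 reached 2-fold in brequinar. Rpl12, a protein of the stalk base, had 32.1 CPM at brequinar 48 h against 46.9 CPM at brequinar 0 h, and 26.2 CPM at withdrawal 48 h against 47.1 CPM at withdrawal 0 h.

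Other members have known roles of their own. Rpsa, the laminin receptor and a small subunit protein, was 1.45-fold at brequinar 6 h and 0.600-fold at brequinar 48 h. Rps19, which is mutated in human Diamond-Blackfan anaemia, was 1.27-fold at brequinar 6 h and 0.744-fold at 48 h, and so was not called. Rpl11, a partner of MDM2, had 162 CPM at brequinar 48 h against 259 CPM at brequinar 0 h. Rpl5, the other partner, had 9.69 to 22.7 CPM in the brequinar series, few counts, and the 2 cultures at 0 h already differed 1.199-fold at this gene. Rps6, the target of the S6 kinases, had at most 1.03 CPM in any culture and gave no usable ratio.

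A few members stayed near their 0 h level at brequinar 48 h. Rpl26, which sits beside the exit tunnel of the nascent chain, had 2447, 2792, 2740, 2440 and 2422 CPM from 0 to 48 h in brequinar and 2455, 2647, 2667, 2537 and 2465 CPM in withdrawal. Its ratio at 48 h was 0.990 (0.971 to 1.01) in brequinar and 1.00 (0.986 to 1.02) in withdrawal. With each cell weighted alike these ratios were 1.10 and 1.09, and with size factors 0.981 and 1.28. Rpl24, a large subunit protein mutated in the mouse strain Belly spot and tail, had ratios at 48 h of 1.13 (0.957 to 1.34) and 0.963 (0.819 to 1.13), within counting error of 1 in both series. Rps12 had a ratio of 0.940 and Rpl32 of 0.919 at brequinar 48 h. Each of the 4 lay at least 0.51 above the family's median log2 ratio at brequinar 48 h.

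**Figure D3:**
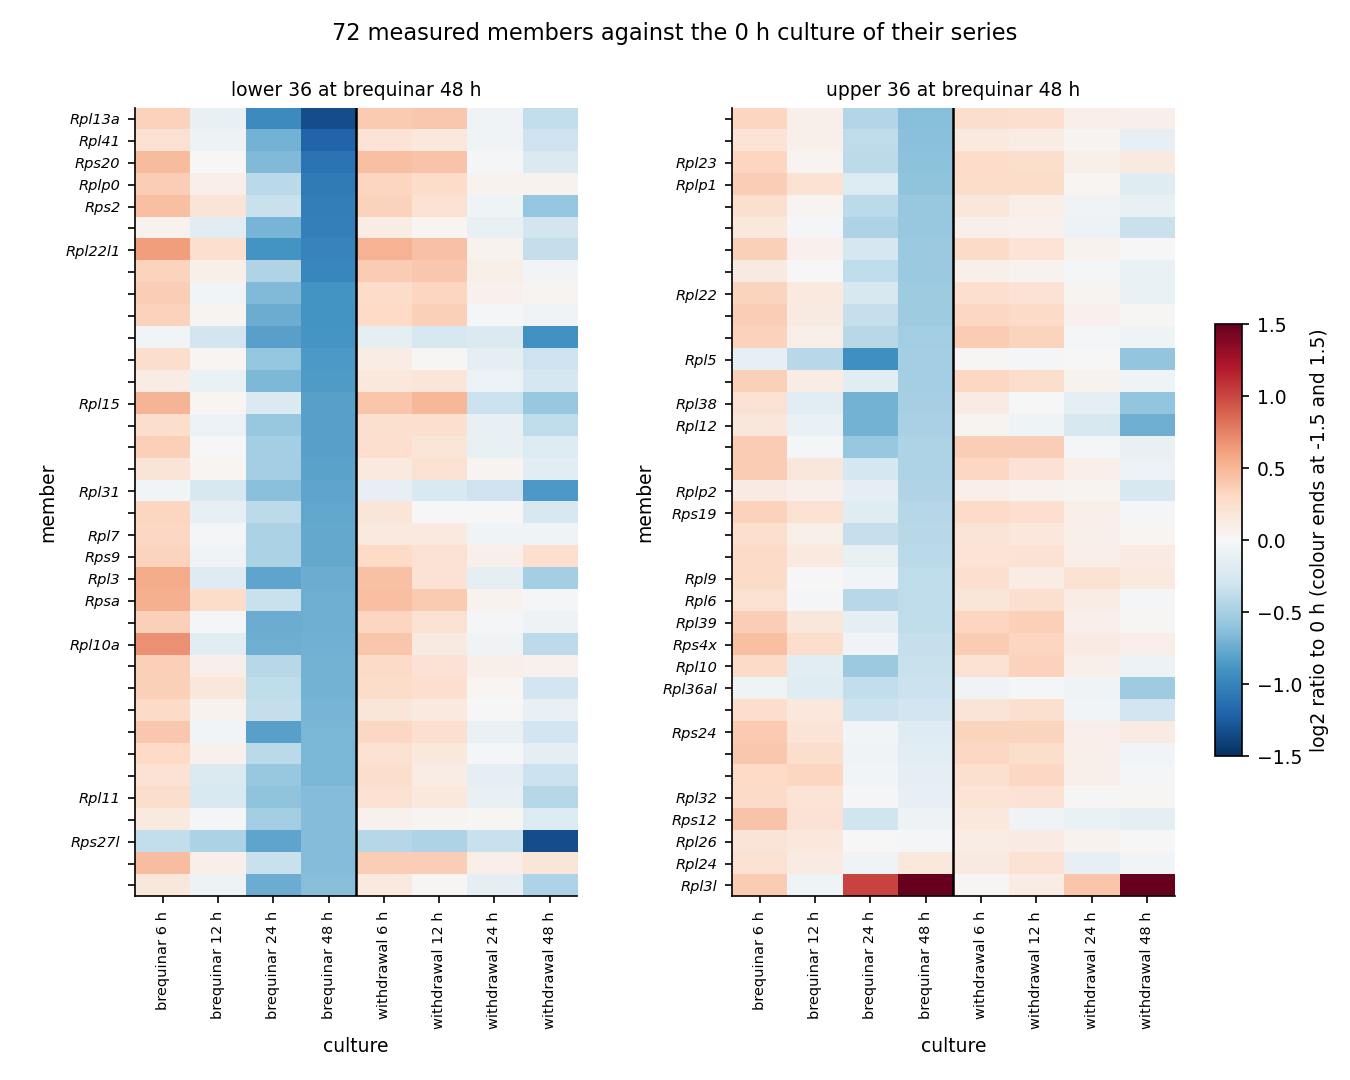
Log2 ratios to the 0 h culture of the same series for the 72 members at 20 CPM or more in any culture, one line per member in the order of brequinar 48 h, some members named, with brequinar left and withdrawal right of the black line. Red is higher and blue lower; colour ends at -1.5 and 1.5, which Rpl3l exceeds at 48 h in both series. Most lines are red at 6 h in both series and blue at brequinar 24 h and 48 h.

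In the withdrawal series the CPM of members stayed above the 0 h level for longer and few were called lower at 48 h. At withdrawal 6 h 66 of 70 measured members had a ratio above 1, with a median log2 ratio of 0.25 against 0.06 over all genes. At withdrawal 12 h 64 of 70 did, with a median of 0.22 against 0.01. At withdrawal 6 h Rpl22l1, Rps20 and Rpsa lay furthest above the median, with ratios of 1.44, 1.37 and 1.37, and at 12 h Rpl15, Rpl22l1 and Rps20, with 1.45, 1.36 and 1.35. Rps27l and Rpl31 were among the 3 furthest below it at both times. No member was called in either direction at 6, 12 or 24 h. Over all measured genes 8.11% were called lower and 12.3% higher at withdrawal 6 h, 11.2% and 13.4% at 12 h, and 11.9% and 9.46% at 24 h. At withdrawal 24 h the members' median log2 ratio was 0.0046, against -0.14 over all genes. Rpl9 lay furthest above that median, at 154 CPM at withdrawal 24 h against 131 CPM at withdrawal 0 h, followed by Rps4x and Rpl6 with ratios of 1.09 and 1.08. Furthest below it were Rps27l, Rpl15 and Rpl31, with ratios of 0.793, 0.783 and 0.798.

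At withdrawal 48 h 7 of 71 measured members were called lower, against 40.7% of 6082 measured genes, and 1, Rpl3l, was called higher, against 21.5%. Here too Rpl3l counted as measured only through the 48 h culture. The median log2 ratio was -0.11, against -0.33 over all genes, so the typical member lay above the typical gene. It did so too with size factors (0.23 against 0.035) and with granule genes out of the total (0.035 against -0.18), but not when genes down to 1 CPM were counted as measured (-0.147 against -0.146). With size factors 2 members were called lower, Rps27l at 0.503 among them, and the share of all genes under that scaling is not given. The 7 on the CPM scale included Rps27l at 0.395, Rpl31 at 0.531, Rpl12 at 0.557, Rpl15 at 0.653, Rpl38 at 0.655 and Rps2 at 0.666. After Rpl3l the highest included Rps9 at 1.195, Rpl23 at 1.11 and Rpl9 at 1.11, none of which was called on the CPM scale. All of these members kept their direction under the 4 other scalings tried on single members, with Rps9 at 1.52 under size factors.

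Rpl31, a large subunit protein, had 108, 105, 90.5, 68.0 and 60.2 CPM from 0 to 48 h in brequinar and 109.9, 100.7, 93.1, 87.7 and 58.4 CPM in withdrawal. It was below its 0 h level at each later time in both series, though within counting error at brequinar 6 h (0.908 to 1.04). The ratios were 0.557 at brequinar 48 h and 0.531 at withdrawal 48 h. Rpl38, whose loss in mice changes the translation of Hox mRNAs, had a ratio of 0.701 in brequinar and 0.655 in withdrawal at 48 h. Rpl15 had 72.7, 98.9, 105, 56.9 and 47.5 CPM from 0 to 48 h in withdrawal, with its highest level at 12 h and a ratio below 1 at 24 h. In brequinar Rpl15 had 72.1, 105, 73.4, 61.4 and 39.0 CPM. Rps9, which in yeast helps to keep decoding accurate, had 3287 CPM at withdrawal 48 h against 2750 CPM at withdrawal 0 h, and 1622 CPM at brequinar 48 h against 2768 CPM at brequinar 0 h.

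The culture in which a member's CPM was highest shows the common course of these shares. In brequinar 65 of 72 members had their highest level at 6 h, and in withdrawal 47 of 71 did, with 19 more at 12 h. Over all genes 15.9% were highest at brequinar 6 h, and at withdrawal 26.7% were highest at 6 h and 14.8% at 12 h. The lowest level was at 48 h for 55 of 72 members in brequinar and for 52 of 71 in withdrawal, against 27.5% and 55.7% of all genes. These levels are CPM, and the direction of the members' median at withdrawal 48 h turned with size factors. Where the lowest level lay under that scaling is not given.

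Set directly against the withdrawal culture of the same time, the brequinar culture had a lower share of ribosomal protein mRNAs from 12 h on. Between the 0 h cultures no member was called in either direction, against 0.0546% of all genes lower and 0% higher, and the members' log2 ratios had a standard deviation of 0.03. At 6 h 66 of 71 members had a ratio above 1, with a median log2 ratio of 0.06 and no call, against 1.45% of genes lower and 1.9% higher. At 12 h 1 of 70 members, Rpl10 at 0.647, was called lower, against 7.33% of genes, and none higher, against 13.2%. Rpl10 had 18.5 CPM at brequinar 12 h and counted as measured only through the withdrawal culture, where it was higher. At 24 h 13 of 70 were lower, against 8.05%, and none higher, against 29.6%. At 48 h 23 of 71 were lower, against 8.57%. The median log2 ratio at 48 h was -0.45 for members and 0.34 for all genes. The 1 member called higher at 48 h, against 37.6% of genes, was Rps27l, with 922 CPM in brequinar and 582 CPM in withdrawal.

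Across the 57 members with a mean of 100 CPM or more, the log2 ratios of the 2 series resembled each other closely at 6 h (Pearson's r 0.97) and less later, with r of 0.64 at 12 h, 0.65 at 24 h and 0.27 at 48 h. The correlation is across genes of the same pool, which are not independent replicates, and is given as a description.

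**Figure D4:**
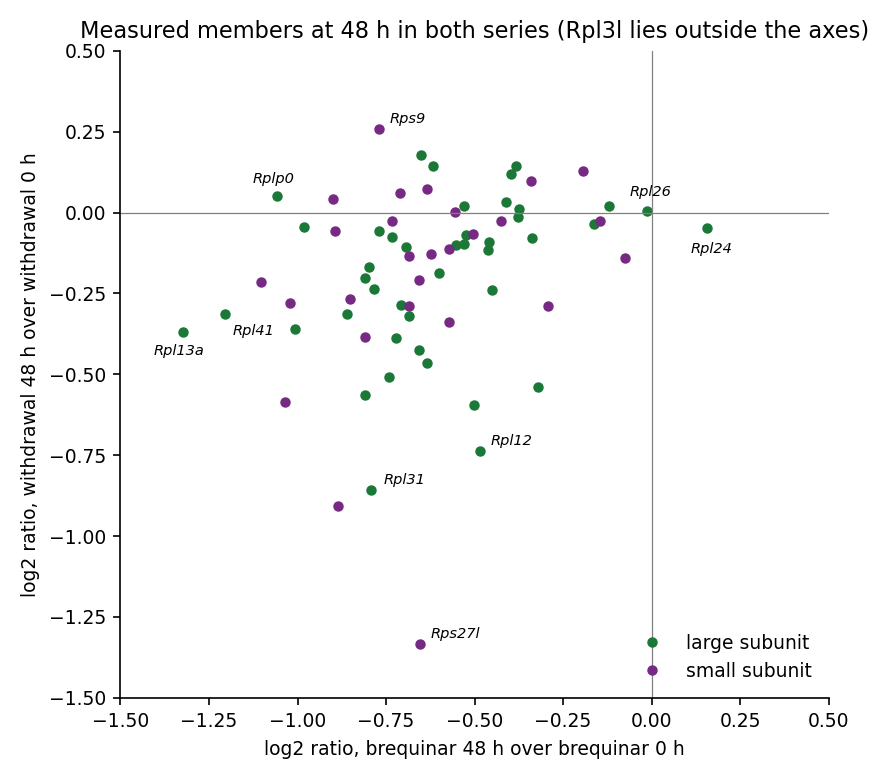
Log2 ratio at 48 h over 0 h in brequinar (horizontal) and in withdrawal (vertical), one point per measured member, large subunit in green and small subunit in purple. Most members lie left of 0 and close to 0 on the vertical axis; Rps27l and Rpl31 are among the lowest in withdrawal, Rpl13a and Rpl41 in brequinar, and Rpl3l, at 2.14 and 2.74, lies outside the axes.

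Several ribosomal proteins have a second gene, a paralog. Rps27l, a paralog of Rps27 that is known as a p53 target in human cells, had 1453, 1125, 1042, 834 and 922 CPM from 0 to 48 h in brequinar. In withdrawal it had 1473, 1097, 1067, 1168 and 582 CPM. It was below its 0 h level at each later time in both series, also at 6 h when most members were above theirs. The ratio at 6 h was 0.775 in brequinar and 0.744 in withdrawal, and at 48 h it was 0.635 (0.616 to 0.654) and 0.395 (0.382 to 0.408). Under the 4 other scalings tried on single members at withdrawal 48 h it was 0.408 to 0.503. Its partner Rps27 was counted at 7.14 to 15.0 CPM in all cultures, which is under the limit for a ratio. How reads that match several genes were counted is not given, so the levels of the pair are not compared with each other.

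Rpl22l1, a paralog of Rpl22 whose mRNA is repressed by the Rpl22 protein in mouse cells, moved in the direction of the family but further. It had 286, 443, 341, 151 and 139.8 CPM from 0 to 48 h in brequinar and 281, 405, 383, 290.4 and 218 CPM in withdrawal. Rpl22 itself had 3009, 3781, 3321, 2548 and 2081 CPM in brequinar, with a ratio of 0.692 at 48 h, against 0.489 (0.452 to 0.528) for Rpl22l1.

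Rpl3l, a paralog of Rpl3 known from heart and skeletal muscle, was the only member called higher at 48 h, and it was so in both series. It was counted 112 times at brequinar 48 h (21.4 CPM) against 20 times at brequinar 0 h (1.00 CPM), a ratio of 21.3 (13.2 to 36.2). At withdrawal 48 h it was counted 263 times (38.3 CPM) against 28 times at withdrawal 0 h (1.503 CPM), a ratio of 25.5 (17.2 to 39.1). At 24 h it had 7.14 CPM in brequinar and 3.71 CPM in withdrawal. It reached the limit of 20 CPM only in the 48 h cultures, so the value that was called also let it count as measured. Each 31-base word in the last 400 bases of its annotated transcripts was found in no other gene. Whether reads were shared with Rpl3 was not tested. Rpl3, a large subunit protein near the catalytic centre, had 71.2 CPM at brequinar 48 h against 122 CPM at brequinar 0 h, and 83.2 CPM at withdrawal 48 h against 121 CPM at withdrawal 0 h.

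The remaining pairs follow. Rpl36al had 323 CPM at brequinar 48 h against 405 CPM at brequinar 0 h and 280 CPM at withdrawal 48 h against 408 CPM at withdrawal 0 h. Rpl36a was counted at 7.58 to 12.9 CPM, and for the same reason the levels of this pair are not compared with each other. Rpl39 had a ratio of 0.770 at brequinar 48 h and 1.01 at withdrawal 48 h. Rpl39l and Rpl10l, both known mainly from testis, had at most 0.152 CPM in any culture. Rpl7 had a ratio of 0.583 at brequinar 48 h and 0.960 at withdrawal 48 h, and Rpl7l1 stayed under 20 CPM. Rps4x had ratios of 0.789 and 1.07, and Rps4l was not counted in any culture.

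**Figure D5:**
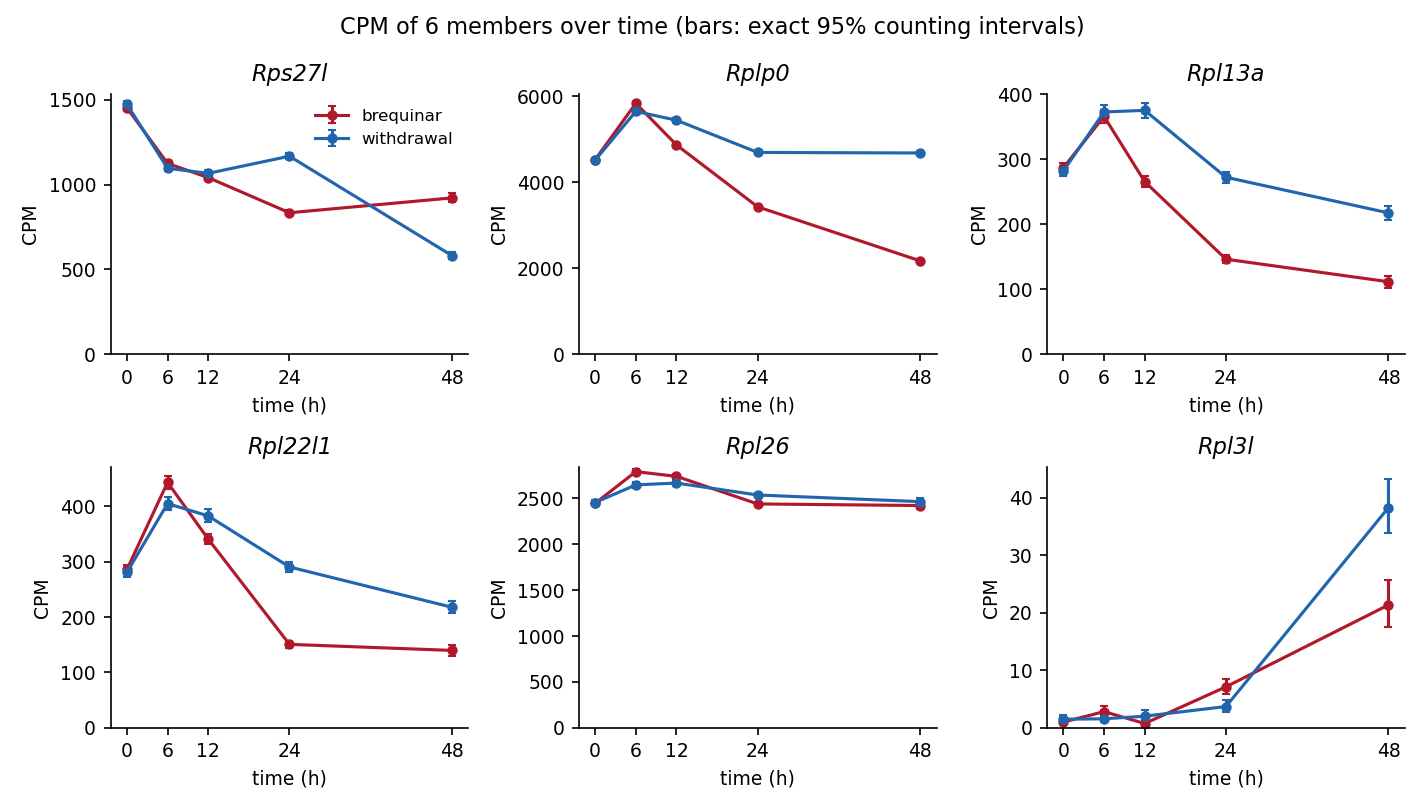
CPM of 6 members against time in hours in the brequinar (red) and withdrawal (blue) series, with exact 95% counting intervals, 1 culture per point. Rps27l is below its 0 h level from 6 h on, Rplp0 separates the series at 48 h (2173 CPM in brequinar, 4682 CPM in withdrawal), Rpl26 ends near its 0 h level and Rpl3l is higher at 48 h in both.

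Ribosomal protein genes have many processed copies in the genome, and how reads that match several genes were counted is not given in the sources used here. Of the 31-base words in the last 400 bases of the coding transcripts of 83 members, the share found in no other gene of GENCODE M21 ran from 0% (Rpl5 and Rpl36a) to 100%. In 24 members it was under 25%, and their median level over the 10 cultures was 103 CPM. In 25 members it was from 25% to under 50%, with a median of 657 CPM, and in 34 it was 50% or more, with a median of 1079 CPM. The low-counted Rps6 had 11.4% of such words and Rpl23a 3.51%, but Rps16, at 10.3 CPM in the mean, had 77.6%. Across the 83 members the Spearman correlation of this share with the mean level was 0.24, given as a description. The part of shared sequence in the levels was not tested, and values are compared between cultures of 1 member. The 300 symbols of ribosomal protein pseudogenes held 0.00762% to 0.0137% of UMIs, and none reached 20 CPM.

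The course of the family was alike in the 3 classes. At brequinar 48 h the median log2 ratio was -0.70 for the members under 25%, -0.67 for the middle class and -0.56 for those at 50% or more, and at brequinar 6 h it was 0.31, 0.27 and 0.33. In withdrawal at 48 h it was -0.14, -0.18 and -0.05. Exons of 5 coding members overlap another annotated gene on the same strand and those of 19 on the opposite strand. Rpl13a and Rpl24 are among the first and Rpl12, Rpl15, Rpl31, Rpl22l1 and Rps2 among the second, and their counts are uncertain to that extent. For members with a listed TOP start and with another start the medians were -0.66 (10 measured members) and -0.64 (45) at brequinar 48 h, and -0.19 and -0.09 at withdrawal 48 h.

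The rest of the machinery was read from lists chosen with earlier results of these data known. Of 4 ribosomal proteins that carry other names, Rack1, a scaffold on the small subunit, was lower at brequinar 48 h, with 1721 CPM against 2735 CPM at brequinar 0 h. Fau, which encodes a small subunit protein fused to a ubiquitin-like one, was not: it had 790 CPM at brequinar 48 h against 634 CPM at brequinar 0 h, and 906 CPM at withdrawal 48 h against 636 CPM at withdrawal 0 h. Both ratios, 1.247 and 1.43, were under the call. Rps3a1, a small subunit protein, had ratios of 0.776 and 1.05.

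Among 22 translation factors and other genes known to have TOP mRNAs, 13 were lower and none higher at brequinar 48 h, against 17.3% and 25.7% of all genes, with a median log2 ratio of -0.71. At brequinar 24 h 10 were lower, against 13.8% of all genes. At withdrawal 48 h 9 were lower, close to the 40.7% of all genes, and none higher, with a median of -0.35 against -0.33 over all genes. Npm1, a nucleolar chaperone of ribosome assembly, had 1252 CPM at brequinar 48 h against 3764 CPM at brequinar 0 h, and 1280 CPM at withdrawal 48 h against 3821 CPM at withdrawal 0 h. Eef1a1, which delivers tRNA to the ribosome, had 2302 CPM at brequinar 48 h against 3810 CPM at brequinar 0 h, and 4714 CPM at withdrawal 48 h against 3801 CPM at withdrawal 0 h. Eef2, the translocation factor, had ratios of 1.02 and 1.39 at 48 h and was 1.61-fold at brequinar 6 h.

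Of the chaperones and importers that carry ribosomal proteins to the nucleolus 15 were measured. Of these 12 were lower at brequinar 24 h, against 13.8% of all genes, 8 at brequinar 48 h, against 17.3%, and 13 at withdrawal 48 h, against 40.7%. None was higher at these times. Their median log2 ratio at withdrawal 48 h was -1.26, below the -0.11 of the ribosomal proteins themselves. Grwd1, whose yeast counterpart is a chaperone of Rpl3, had 24.6 CPM at brequinar 48 h against 59.2 CPM at brequinar 0 h and 10.8 CPM at withdrawal 48 h against 59.4 CPM at withdrawal 0 h. Rrs1, which brings Rpl5 and Rpl11 into the assembling subunit in yeast, had 163 CPM at brequinar 48 h against 216 CPM at brequinar 0 h and 59.0 CPM at withdrawal 48 h against 217 CPM at withdrawal 0 h.

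Of the regulators of ribosomal protein mRNAs, 1 of 11 was lower and 2 were higher at brequinar 48 h, against 17.3% and 25.7% of all genes. At withdrawal 48 h 5 of 10 were lower and 1 higher, against 40.7% and 21.5%. Larp1 had 91.3 CPM at brequinar 48 h against 100.5 CPM at brequinar 0 h, and 34.5 CPM at withdrawal 48 h against 100.4 CPM at withdrawal 0 h. Cnbp, an RNA-binding protein that binds TOP mRNAs, had 642 CPM at brequinar 48 h against 1040.2 CPM at brequinar 0 h and 294 CPM at withdrawal 48 h against 1036 CPM at withdrawal 0 h. Of the p53 inhibitors, Mdm2 had 52.1 CPM at brequinar 48 h against 39.3 CPM at brequinar 0 h, which was not called, and Mdm4 had 75.6 CPM against 46.9 CPM, which was.

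Ribosomal proteins of the mitochondrion, found by the symbols Mrpl and Mrps (83), took another course at brequinar 6 h and in withdrawal. At brequinar 6 h their median log2 ratio was -0.15 over 68 measured genes, against 0.32 for the cytosolic members. At brequinar 24 h the 2 sets were alike, with medians of -0.42 for the mitochondrial and -0.41 for the cytosolic members. There 24 of 69 mitochondrial and 23 of 71 cytosolic members were lower, against 13.8% of all genes. At brequinar 48 h 31 of 68 mitochondrial members were lower, against 17.3% of all genes, with a median of -0.51. Of the cytosolic members 42 of 72 were lower, with a median of -0.63. In withdrawal at 48 h 54 of 68 were lower, against 40.7% of all genes, with a median of -1.04. For the cytosolic members these were 7 of 71 and -0.11. The difference between the 2 sets rests on 1 culture per condition and was not tested.

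The genes whose course over the 10 cultures was most like that of the family sum were looked for among 1858 genes with a mean of 100 CPM or more that are no members. Eef1b2, a translation elongation factor, was closest (Pearson's r 0.99 of log2 CPM), followed by Rack1, Rps3a1, Eef1a1, Pabpc1, Eif3i, Tmem234, Eif3e, Tmem128 and Wdr83os, the last at 0.92. An r of at least 0.9 was reached by 14 of the 1858 genes and by 47 of the 57 members at this level, whose sum the members themselves form. The 10 cultures share 1 pool and the CPM of all genes share 1 total, so these values are a description.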

How the data were processed

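Processed files of the whole series were used: a spliced count matrix over both runs with its gene and barcode lists, a table of MULTI-seq calls and a table that pairs barcodes with conditions. The spliced values are whole-number counts of UMIs per gene and barcode, as deposited. Per the submitters' processing notes, kallisto 0.46, bustools 0.39.4 and Cell Ranger were used. Which step each served, and with which genome build and annotation, is not given in the sources used here. Gene IDs (54838) were given symbols from the annotation tables for 54723. The matrix does not say from which run a barcode came, and both runs were analysed as one. Of 15582 annotated barcodes, 2777 called Doublet by the authors (17.8%) and 265 called Negative were left out. No further doublet caller was run, and a doublet within 1 condition carries 1 label and would remain. Cells used hold 63.9% of all spliced UMIs.

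Counts were summed per condition and divided by the condition's total (CPM). Ratios carry exact conditional binomial (Clopper-Pearson) intervals, which cover counting error only. Since 1 culture stands for each condition, no test or p-value was computed. The ratio, interval and call rule were tested on simulated counts that held counting error only. That check cannot speak to variation between cultures. Depth gives a floor of 3 counts, 0.151 to 0.573 CPM. Phase scores used scanpy 1.11.5 on cells thinned to 2500 UMIs, and shallower cells (13 to 249 per condition) were left out. Python 3.11.15, numpy 2.4.6, scipy 1.17.1 and pandas 2.3.3 were used. Starts and promoters are RefSeq's (GRCm38.p6), and 31-base words come from GENCODE M21 transcripts. Alternatives changed scaling, cells, controls, filters and thresholds.

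The members and all gene lists were chosen with earlier results of these data known. Members named singly are the 5 highest and 5 lowest of each series at 48 h, the 3 that depart furthest from the family median in each direction at each time, a fixed set (stalk proteins, Rpsa, Rpl5, Rpl11, Rps6, Rps19) and 8 paralog pairs; members not called and listed for contrast were chosen after their values were seen. A few members that the rule names are not reported here.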

Additional observations from a re-analysis of the deposited data

Results flagged for a closer look

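Some values went opposite ways from their own 0 h culture in the 2 series, by more than counting error in each. With 1 culture per condition, none of these differences was tested. The summed ribosomal protein share was 0.804-fold at brequinar 24 h and 1.02-fold at withdrawal 24 h. At 48 h the same was seen for members called lower in brequinar, 5 of which are given. Rplp0 was 0.480-fold in brequinar and 1.04-fold in withdrawal, the widest ratio between the series among them. Rps9 was 0.586-fold and 1.195-fold. Rps3 was 0.611-fold in brequinar and 1.04-fold in withdrawal. Rps15a was 0.643-fold in brequinar and 1.05-fold in withdrawal. Rpl23 was 0.651-fold and 1.11-fold. Under size factors, under a total without granule genes, without the granule-richest cells and with each cell weighted alike, all 5 kept these directions at 48 h.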

How the results depend on the processing

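Of 88 alternative values of the summed share against 0 h, 3 turned its direction, all at withdrawal 48 h. There it was 0.946-fold, against 1.21 with median-of-ratios size factors, 1.05 with a total free of granule genes and 1.03 with each cell weighted alike. The remaining values there beyond counting error were 0.913 weighted to the phases of 0 h, 0.935 without mitochondrially encoded genes in the total, 0.934 without cells rich in mitochondrial UMIs, 0.940 without cells under 2500 UMIs and 0.986 without the granule-richest cells. At brequinar 48 h it was 0.680, against 0.665 with free RNA removed, 0.753 with each cell weighted alike, 0.674 with size factors, 0.671 without mitochondrially encoded genes, 0.695 without granule genes, 0.668 without mitochondria-rich cells and 0.675 without shallow cells. At brequinar 6 h it was 1.247, against 1.259 with free RNA removed, 1.242 weighted to the phases, 1.261 with each cell weighted alike, 1.216 with size factors, 1.252 without mitochondria-rich cells, 1.2502 without shallow cells and 1.259 without the granule-richest cells. At withdrawal 6 h it was 1.191, against 1.201 with free RNA removed, 1.195 weighted to the phases, 1.157 with each cell weighted alike or with size factors, 1.201 without mitochondrially encoded genes, 1.216 without mitochondria-rich cells, 1.2003 without shallow cells and 1.201 without the granule-richest cells.

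Median log2 ratios turned with size factors at brequinar 12 h (-0.033, against 0.035) and at withdrawal 48 h (0.23, against -0.11), and there also without granule genes (0.035). The cause was not tested. Restricting the members to those with 50% or more unique words, an alternative chosen after seeing the data, moved no median by 0.1 or more.

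Counts of lower members moved with the thresholds. With a ratio of 0.8 or below they were 1, 2 and 53 at brequinar 6, 12 and 24 h, against 15.6%, 13.8% and 24.1% of all genes. In withdrawal they were 1, 1, 3 and 18 at 6, 12, 24 and 48 h, against 18.8%, 24.3%, 32% and 51.9%. With 0.5 or below they were 1 and 8 at brequinar 24 and 48 h, against 5.54% and 5.6%, and 1 at withdrawal 48 h, against 24.8%. At 1 CPM they were 1 and 2 at brequinar 6 and 12 h, 1 and 1 at withdrawal 6 and 12 h and 11 at withdrawal 48 h. At 100 CPM 15 were lower at brequinar 24 h, against 23. At brequinar 12 h 1 was lower with size factors and 1 with each cell weighted alike, against 0. At withdrawal 48 h, against 7, there were 2 with size factors, 4 without granule genes in the total and 4 without the granule-richest cells. The other 99 alternative counts stayed within 1.5 times. For the filters of 1 and 100 CPM and for other scalings, weights or cells, the share of all genes is not given. Those counts show how far the number of members moved and are no result about the family. No paired analysis was possible because each condition is 1 culture and the 2 runs cannot be separated in the matrix; for the same reason no replicate could be left out. Depth limits members under 20 CPM.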
